A study of Mus musculus with 12 samples.

Results

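This account describes the loss of interleukin-10 in mouse colon when STING is absent from both sides of the comparison. Colons of IL10-/- STING-/- mice (double knockout, DKO, 3 arrays) were set against colons of IL10+/+ STING-/- mice (STING single knockout, SKO, 3 arrays), chosen by the labelled genotype, 6 of the 12 arrays in the series. The other 6 arrays were labelled IL10-/- STING+/+ (IL10KO, 3 arrays) and IL10+/+ STING+/+ (WT, 3 arrays), and they were used to set the same loss of interleukin-10 beside it. That STING was present in these follows the labels, and 1 of them, the library labelled WT replicate 3, had a Sting1 signal of 4.56, near that of the STING knockouts. The labels name the tissue and the genotype. The labels do not state strain, age, housing, how each allele was made or whether each array is a separate animal, and p-values cover the spread among these arrays, which may be partly technical. Every value is a log2 signal of an Affymetrix whole-transcript array, in which RNA is copied, labelled and hybridised to probes along each gene, and 22180 named genes were tested. A difference of 1 on this scale is a 2-fold difference in signal, given with its standard error (SE), and levels of different genes were not set against each other.

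Interleukin-10 is a cytokine that restrains macrophages and T cells, acting through STAT3, and mice without it are prone to colitis driven by gut bacteria. STING is an adaptor in the membrane of the endoplasmic reticulum that receives the cyclic dinucleotide made by cGAS when DNA is found in the cytosol, and it switches on type I interferon and NF-kappaB target genes. Inflamed colon is typically marked by neutrophil genes, acute-phase proteins, antimicrobial lectins of the epithelium and genes induced by interferon-gamma.

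The labels were checked against the targeted genes and the tissue. Sting1, which encodes STING, had signals of 4.23, 4.13 and 4.34 in DKO colons and 4.40, 4.32 and 4.28 in SKO colons, against 6.87, 8.09 and 7.33 in IL10KO colons. Among the WT libraries it was 7.51, 6.40 and 4.56. Il10 itself had signals of 4.60, 4.49 and 4.33 in DKO colons and 3.82, 3.65 and 3.70 in SKO colons, 0.75 ± 0.19 higher and short of the threshold (limma adjusted p = 0.394). Where its probes lie relative to the deleted part is not known here, so it checks no label. Colonocyte markers averaged 10.04 to 10.29 in DKO arrays and 9.98 to 10.18 in SKO arrays, and smooth muscle markers 9.35 to 9.61 and 9.43 to 9.62, while the median gene lay between 5.47 and 5.57 in these 6 arrays. SKO replicate 2 stood apart, with a median deviation of 0.18 from the gene medians against 0.09 to 0.13 in the other 5, and its mean correlation with the other SKO arrays was 0.984. Adipocyte markers averaged 6.90 in DKO replicate 1 and 5.35 to 5.98 in the other 5, and stratified squamous and sebaceous genes averaged 4.95 in DKO replicate 3 and 4.23 to 4.51 in the other 5. The library labelled WT replicate 1 had the highest mean of the 12 for the interferon-gamma-induced genes, at 7.36.

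Of the 22180 genes, 10 passed limma's moderated test at a Benjamini-Hochberg adjusted p under 0.05 between DKO and SKO colons (0.0451% of genes). Higher in DKO were St3gal4, Nxpe4, Gm609, Casp4, Cbr3, Ceacam10, Gm6020 and Dubr (8 genes, 0.0361%), and lower were Gdpd3 and Hddc3 (2 genes, 0.00902%). Each of the 10 differed by at least 2-fold, and 96 of all genes did so without regard to the test, 72 above and 24 below. An unadjusted p under 0.05 was reached by 1059 genes (4.77%), 471 of them above and 588 below. The 3 DKO arrays lay wholly above or wholly below the 3 SKO arrays for 2473 genes (11.1%). The median difference of all genes was -0.03 and the median SE 0.17.

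The count of calls rested on which arrays entered the fit. With the 6 DKO and SKO arrays alone, 41 genes were called, 33 higher and 8 lower, and all 10 were among them. In the fit of all arrays, the count was 5 without DKO replicate 3, 5 without SKO replicate 1, 6 without SKO replicate 2, 6 without SKO replicate 3 and 6 without WT replicate 2. It was 20 without WT replicate 1 and 20 without WT replicate 3, arrays that enter only the estimate of the spread.

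**Figure D1:**
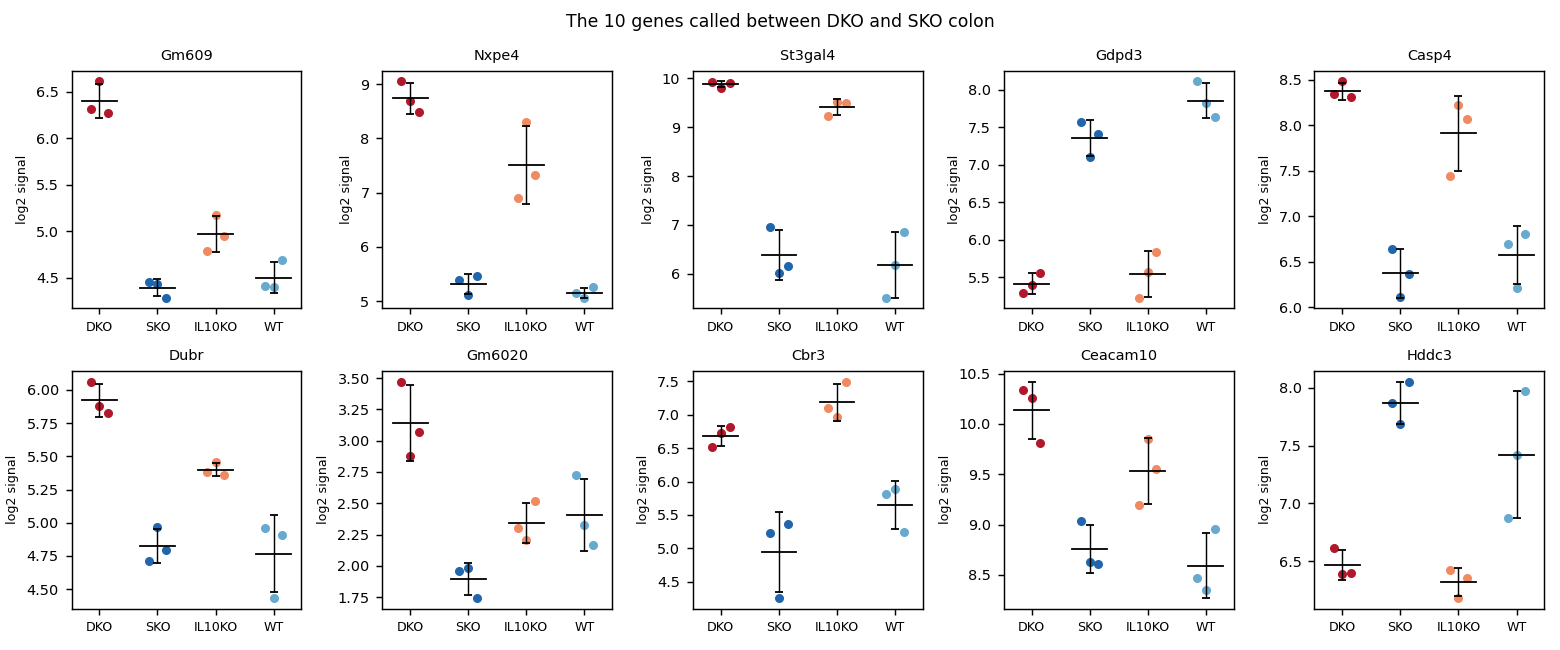
The 10 genes called between DKO and SKO colons, with the log2 signal of each array on the vertical axis and the 4 genotypes on the horizontal axis. Points are arrays, horizontal lines are means and vertical lines are 1 SD (n = 3 each). In every panel the DKO points lie wholly on one side of the SKO points.

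Among the called genes the largest difference was in an enzyme that decorates glycans. St3gal4, a sialyltransferase that adds sialic acid to terminal galactose, had signals of 9.92, 9.81 and 9.91 in DKO colons and 6.96, 6.01 and 6.15 in SKO colons. The DKO arrays lay close together and far above every SKO array, at 11.3-fold (3.50 ± 0.29, limma adjusted p = 9.06e-05). The same gene was higher in IL10KO than in WT by 3.24 (limma adjusted p = 4.54e-05), and the difference between the 2 effects was 0.27 (limma adjusted p = 0.762).

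Nxpe4, a member of the neurexophilin and PC-esterase domain family, had signals of 9.05, 8.70 and 8.49 in DKO colons and 5.38, 5.11 and 5.47 in SKO colons. The groups did not overlap (10.7-fold, 3.43 ± 0.27, limma adjusted p = 8.73e-05). Between IL10KO and WT the difference was 2.35 (limma adjusted p = 0.000305).

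Casp4, known in mice as caspase-11, senses bacterial lipopolysaccharide in the cytosol and cleaves gasdermin D to open pores in the membrane. Its signals were 8.34, 8.48 and 8.30 in DKO colons and 6.64, 6.11 and 6.36 in SKO colons, with no overlap. The gene was 4.01-fold higher (SE 0.21 on the log2 scale, limma adjusted p = 0.00116), and differed by 1.34 between IL10KO and WT (limma adjusted p = 0.00272). It was called without any single array, and with DKO replicate 3 and SKO replicate 2 both left out the adjusted p was 0.0746.

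Gdpd3, a glycerophosphodiester phosphodiesterase that releases lysophosphatidic acid from lysophospholipids, went the other way. Its signals were 5.28, 5.39 and 5.56 in DKO colons and 7.57, 7.10 and 7.40 in SKO colons. Every DKO array lay below every SKO array, and the gene was 3.85-fold lower (-1.95 ± 0.18, limma adjusted p = 0.000326). Between IL10KO and WT it was lower too (-2.31, limma adjusted p = 1.79e-05).

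Gm609, a predicted gene, had signals of 6.32, 6.61 and 6.27 in DKO colons and 4.46, 4.43 and 4.29 in SKO colons (4.02-fold, 2.01 ± 0.15, limma adjusted p = 6e-05). Between IL10KO and WT it differed by 0.47, short of the threshold (limma adjusted p = 0.0666). The 2 differences were themselves unequal, by 1.54 (limma adjusted p = 0.0054), the larger being that between DKO and SKO. St3gal4, Nxpe4, Gdpd3 and Gm609 were called under all 21 other settings of the fit.

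Cbr3, a carbonyl reductase of quinones and other ketones, had signals of 6.52, 6.73 and 6.81 in DKO colons and 5.22, 4.26 and 5.36 in SKO colons (1.74 ± 0.26, limma adjusted p = 0.0378). Its lowest value was in SKO replicate 2, and without that array the difference was 1.39 (limma adjusted p = 0.0754). Ceacam10, a secreted member of the carcinoembryonic antigen family, had signals of 10.34, 10.26 and 9.81 in DKO colons and 9.03, 8.63 and 8.61 in SKO colons (1.38 ± 0.21, limma adjusted p = 0.0385). Dubr, a long noncoding RNA, had signals of 6.06, 5.88 and 5.82 in DKO colons and 4.71, 4.97 and 4.79 in SKO colons (1.10 ± 0.15, limma adjusted p = 0.0192). The DKO and SKO arrays did not overlap in any of the 3, and each was higher in IL10KO than in WT, by 1.54, 0.94 and 0.63 (limma adjusted p = 0.00381, 0.0181 and 0.0233).

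Hddc3, a hydrolase with an HD domain that removes phosphate from nucleotides, had signals of 6.61, 6.39 and 6.39 in DKO colons and 7.87, 7.68 and 8.05 in SKO colons (-1.40 ± 0.22, limma adjusted p = 0.0385). It was also lower in IL10KO than in WT (-1.10, limma adjusted p = 0.00881). Gm6020, a predicted gene, had dim signals of 3.47, 2.88 and 3.07 in DKO colons and 1.96, 1.98 and 1.74 in SKO colons (1.25 ± 0.18, limma adjusted p = 0.027), and its difference between IL10KO and WT was -0.06. Both sets of DKO arrays were clear of the SKO arrays, but these calls were among those that single arrays decided. Without DKO replicate 3 or SKO replicate 1, the calls of Cbr3, Ceacam10, Dubr, Hddc3 and Gm6020 were all lost. Without DKO replicate 1 these same calls were lost as well, Gm6020 at a difference of 1.08 (limma adjusted p = 0.0965). Leaving out DKO replicate 2 ended the calls of Cbr3, Ceacam10, Dubr and Hddc3, at limma adjusted p between 0.095 and 0.242. Other single omissions that ended a call were SKO replicate 2 (Cbr3, Ceacam10, Hddc3, Gm6020), SKO replicate 3 (Ceacam10, Dubr, Hddc3, Gm6020), WT replicate 2 (Cbr3, Ceacam10, Hddc3, Gm6020), IL10KO replicate 2 (Cbr3, Hddc3) and IL10KO replicate 3 (Ceacam10, Hddc3).

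The 4 called genes with an established symbol whose DKO and SKO levels were furthest apart are shown with the bases just before their transcription start, since Casp4 is a gene whose induction through NF-kappaB and interferon is well known. The windows are RefSeq sequence of build GRCm38.p6, 5′ to 3′ on the strand of the gene, for St3gal4 (chr9:35116865-35117114, minus strand), Nxpe4 (chr9:48361791-48362040, plus strand), Casp4 (chr9:5308599-5308848, plus strand, the first of 2 listed starts) and Gdpd3 (chr7:126766164-126766413, plus strand). Capitals mark matches to the NF-kappaB consensus, a motif of 10 bases.
St3gal4: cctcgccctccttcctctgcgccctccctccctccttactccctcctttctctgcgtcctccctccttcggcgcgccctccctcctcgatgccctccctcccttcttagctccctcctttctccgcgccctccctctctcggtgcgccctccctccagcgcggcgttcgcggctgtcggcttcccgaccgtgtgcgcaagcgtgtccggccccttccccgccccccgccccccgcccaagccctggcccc
Nxpe4: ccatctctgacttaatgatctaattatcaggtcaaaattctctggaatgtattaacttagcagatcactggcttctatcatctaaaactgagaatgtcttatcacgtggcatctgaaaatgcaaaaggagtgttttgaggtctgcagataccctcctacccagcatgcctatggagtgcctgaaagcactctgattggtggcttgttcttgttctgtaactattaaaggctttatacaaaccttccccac
Casp4: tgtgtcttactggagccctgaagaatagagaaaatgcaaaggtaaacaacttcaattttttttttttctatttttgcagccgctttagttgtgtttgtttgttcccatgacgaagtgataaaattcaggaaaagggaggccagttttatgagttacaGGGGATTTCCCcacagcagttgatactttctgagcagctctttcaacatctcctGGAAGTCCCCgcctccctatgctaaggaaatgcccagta
Gdpd3: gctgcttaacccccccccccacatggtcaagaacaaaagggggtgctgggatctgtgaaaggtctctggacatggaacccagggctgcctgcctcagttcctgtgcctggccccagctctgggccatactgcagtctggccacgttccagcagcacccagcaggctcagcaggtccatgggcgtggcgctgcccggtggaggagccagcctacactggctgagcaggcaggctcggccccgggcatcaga
The Casp4 window held 3 matches to the consensus, read on both strands, which ended 84, 83 and 30 bases before the start. The first pair overlap and share all but 1 base on each side. The windows of St3gal4, Nxpe4 and Gdpd3 held none, and no window held the interferon response element searched (GAAA, any 2 bases, GAAA) or the STAT element searched (TTCNNNGAA). Of 27025 mouse promoters of the same length, 7.01% held the NF-kappaB consensus, 3.04% the first of these elements and 7.18% the second. A match is a description of the letters, and binding was not measured here.

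The 10 called genes lay on 4 chromosomes, 3 each on chromosomes 7, 9 and 16 and 1 on chromosome 19. These chromosomes held 8.86%, 5.70%, 3.20% and 3.27% of the measured genes. Of the 41 calls in the fit of the DKO and SKO arrays alone, they held 10, 6, 3 and 1. Whether the calls gather on a chromosome was not tested. None of the nearest measured genes on either side of a called gene (20 in all, 12 for Gm6020) was itself called. The same held for the 20 nearest Il10, on chromosome 1, and the 20 nearest Sting1, on chromosome 18. With 0.0451% of all genes called, sets of this size would seldom hold a call, so these counts say little about the neighbourhoods. At an unadjusted p under 0.05 (4.77% of all genes), the neighbours of a called gene numbered from 0 for Gm6020 to 4 for Hddc3. Near Il10 there were 2, with Ctse the smallest (-0.75, limma unadjusted p = 0.00906), and near Sting1 there was 1. Among the neighbours, Cd177 beside Ceacam10 came closest to the threshold together with 4930581F22Rik near St3gal4, at differences of 1.32 and 1.04 (limma adjusted p = 0.104 for each). Nxpe2, of the same family as Nxpe4, differed by 0.91 (limma adjusted p = 0.519), and Cbr1, a carbonyl reductase beside Cbr3, by 0.66 (limma adjusted p = 0.648).

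The comparison of IL10KO with WT, from 6 other arrays, was set beside these values. There 1805 genes were called (8.14%), against 10 between DKO and SKO. The WT arrays in it include WT replicate 3, whose Sting1 signal was near that of the STING knockouts. Of the 10 genes, 8 were also among the 1805, with the same sign in all 8, and the exceptions were Gm609 and Gm6020. Of the 1805 genes, 1181 (65.4%) had the same sign between DKO and SKO, where 49.6% of all genes did. The 501 called genes that differed by at least 2-fold between IL10KO and WT had a median absolute difference of 0.22 between DKO and SKO and 1.37 between IL10KO and WT, where the medians over all genes were 0.12 and 0.22. They were chosen in the second of these comparisons, so their size there is a description. Stratified squamous and sebaceous genes averaged 5.09, 6.94 and 7.07 in IL10KO arrays and 4.26 to 4.31 in WT arrays, and 16 of the 22 measured were called higher in IL10KO (median 2.12). The part of this RNA in the 1805 calls was not tested.

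**Figure D2:**
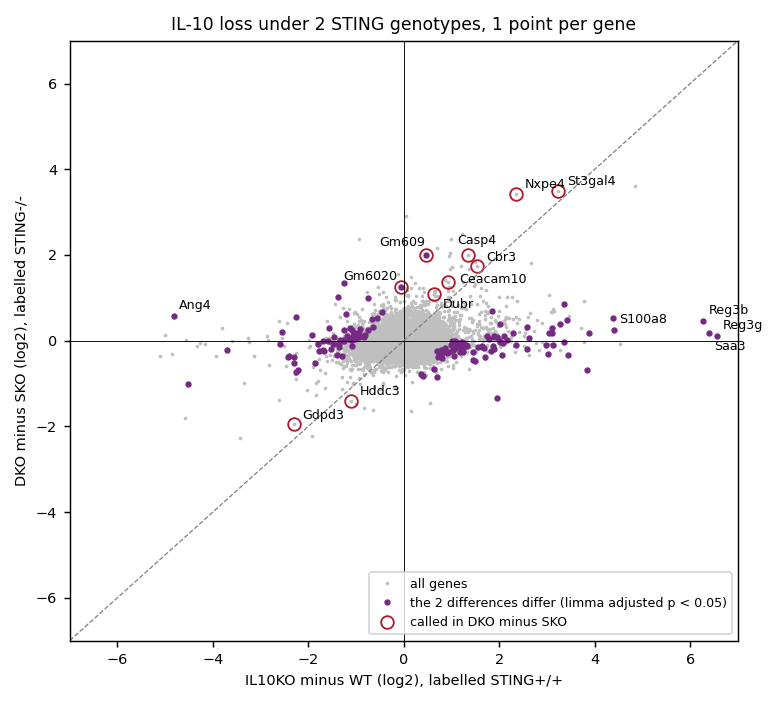
Difference in log2 signal between DKO and SKO colons against the difference between IL10KO and WT colons, 1 point per gene for 22180 genes. Open circles mark the 10 genes called between DKO and SKO and dark points the 143 genes whose 2 differences were unequal, and genes such as Saa3 and Reg3g lie near 0 on the DKO minus SKO axis and above 6 on the other.

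The effect of interleukin-10 loss in the arrays labelled STING-/-, less that in the arrays labelled STING+/+, (DKO minus SKO) minus (IL10KO minus WT), passed for 143 genes (0.645%), 62 positive and 81 negative. The 5 most negative were Reg3g, Saa3, Reg3b, Retnlg and S100a8. Saa3, an acute-phase serum amyloid made by macrophages and epithelium, had signals of 4.14, 4.69 and 4.01 in DKO colons and 3.86, 4.45 and 4.02 in SKO colons. The 2 groups overlapped, and the difference of 0.17 had a 95% interval of -0.23 to 0.57. Between IL10KO and WT it was 6.39, and the effects differed by -6.22 ± 0.27 (limma adjusted p = 4.95e-08), or by -6.23 without the library labelled WT replicate 3.

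Reg3g, an antibacterial lectin of the epithelium, had signals of 2.81, 3.12 and 3.14 in DKO colons and 2.84, 3.11 and 2.82 in SKO colons. These are dim values, under the lower quartile of genes on every one of the 6 arrays (3.90 to 4.20), where a small difference could go unseen. The difference was 0.10 (95% interval -0.50 to 0.70) against 6.56 between IL10KO and WT, and the effects differed by -6.46 ± 0.39 (limma adjusted p = 2.69e-06). Reg3b, its close relative, had signals of 4.85, 4.22 and 4.89 in DKO colons and 4.15, 4.59 and 3.86 in SKO colons. The groups overlapped again, the interval of the difference reached from -0.91 to 1.81, and the effects differed by -5.82 ± 0.89 (limma adjusted p = 0.0118). Since Reg3b and Reg3g are similar in sequence, probes may not fully separate them.

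S100a8, a subunit of the neutrophil protein calprotectin, had signals of 2.52, 3.06 and 3.06 in DKO colons and 2.58, 2.67 and 2.62 in SKO colons, also under the lower quartile. The difference was 0.25 (95% interval -0.68 to 1.19), and the effects differed by -4.15 ± 0.62 (limma adjusted p = 0.0103). Retnlg, a resistin-like protein of neutrophils, had signals of 3.62, 2.82 and 2.88 in DKO colons and 4.13, 3.08 and 4.16 in SKO colons (effects differing by -4.52 ± 0.70, limma adjusted p = 0.0122). For neither gene did the DKO arrays lie clear above the SKO arrays. Retnlg was lower in DKO by its mean (-0.68), with overlap, and its DKO signals were also under the lower quartile.

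The 5 positive genes named were Ang4, Clps, Gsdmc3, C7 and Gsdmc2. Ang4, a microbicidal ribonuclease of Paneth and goblet cells, had signals of 11.00, 11.14 and 12.04 in DKO colons and 11.26, 10.53 and 10.69 in SKO colons. The 95% interval of its difference between DKO and SKO ran from -0.66 to 1.79. In IL10KO colons its signals were 5.07, 5.01 and 7.80, and in WT colons 10.70, 10.42 and 11.22. It was thus lower in IL10KO than in WT (-4.82, limma adjusted p = 0.000332). The effects differed by 5.39 ± 0.81 (limma adjusted p = 0.0107). Gsdmc3, a gasdermin of the colon epithelium, had signals of 10.69, 10.61 and 10.98 in DKO colons and 11.02, 10.06 and 10.63 in SKO colons, overlapping, and the effects differed by 2.74 ± 0.36 (limma adjusted p = 0.00507). Gsdmc2, its near-identical neighbour in a gene cluster, differed between effects by 2.50 ± 0.47 (limma adjusted p = 0.0303), and probes may be shared between the pair.

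C7, a component of the complement membrane attack complex, had the largest difference between DKO and SKO of the 5 positive genes named. It had signals of 8.09, 6.92 and 7.44 in DKO colons and 5.89, 6.10 and 6.39 in SKO colons, without overlap, yet at 1.35 ± 0.37 it was not called (limma adjusted p = 0.517). The effects differed by 2.61 ± 0.52 (limma adjusted p = 0.0402). Clps, pancreatic colipase, had signals of 7.72, 7.68 and 8.12 in DKO colons and 9.59, 8.31 and 8.66 in SKO colons, and the effects differed by 3.51 ± 0.67 (limma adjusted p = 0.0335). Pancreatic acinar enzymes averaged 5.01 to 5.19 in DKO arrays, 5.21 to 5.46 in SKO arrays, 4.86 to 5.10 in IL10KO arrays and 8.07, 10.54 and 5.45 in WT arrays. The part of that RNA in the Clps result was not tested.

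**Figure D3:**
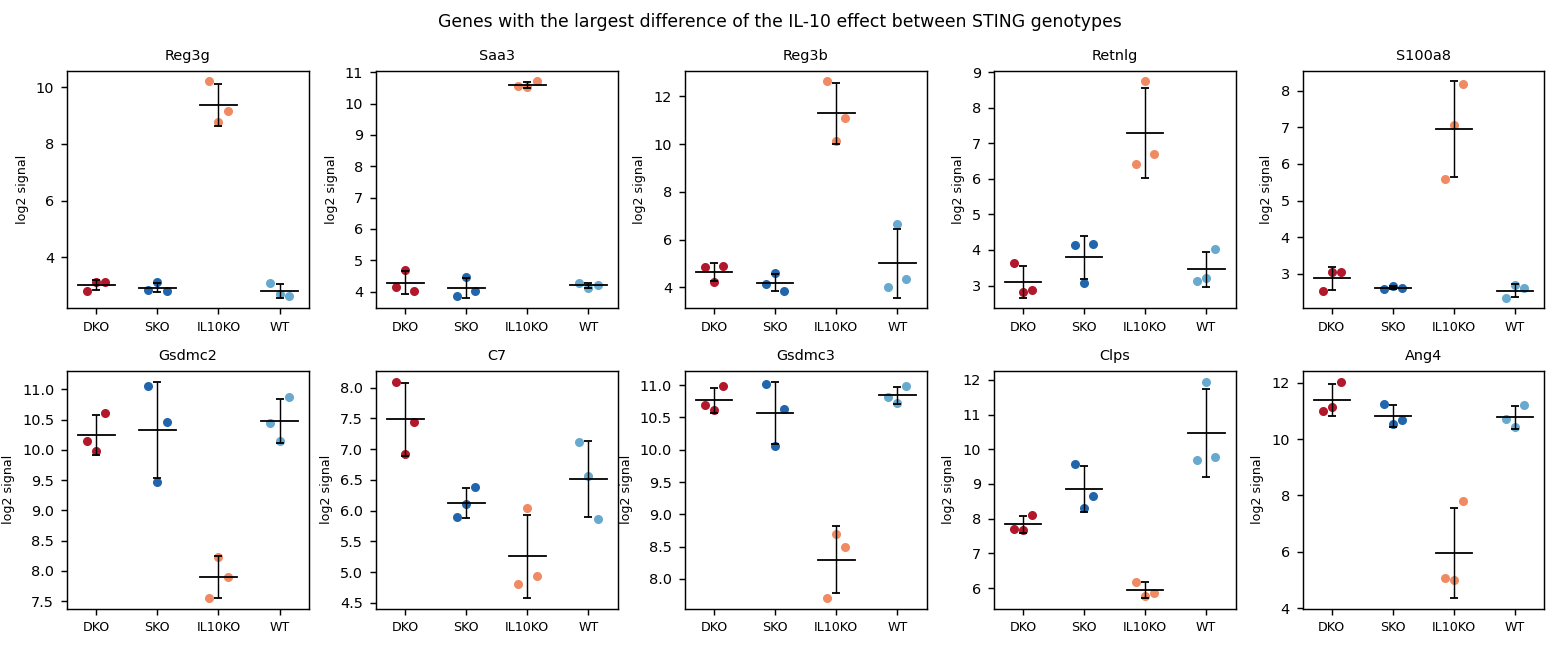
Log2 signal of each array for the 10 genes named from the difference between the effects of interleukin-10 loss, 5 positive and 5 negative, by genotype. Points are arrays, horizontal lines are means and vertical lines are 1 SD (n = 3 each). For Saa3, Reg3g, Reg3b, Retnlg and S100a8 the DKO and SKO points overlap while the IL10KO points lie above the WT points.

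The count of 143 also moved with single arrays, between 50 and 376. It was 316 without IL10KO replicate 1, 376 without IL10KO replicate 2, 59 without DKO replicate 1 and 50 without DKO replicate 2. It was 73 without WT replicate 1 and 51 without WT replicate 2. Without WT replicate 3, the library with the low Sting1 signal, it was 168, and 114 of these genes were among the 143. The count was 57, 55 and 75 without SKO replicates 1, 2 and 3. Saa3, Reg3g and Gsdmc3 were called under all 20 other settings for this difference. The call of Clps was lost without IL10KO replicate 3, any 1 of the DKO replicates, SKO replicate 2 or SKO replicate 3, with adjusted p up to 0.174 over those settings. That of C7 was lost without IL10KO replicate 3, DKO replicate 1, DKO replicate 3, WT replicate 1, WT replicate 2 or any 1 of the SKO replicates, with adjusted p up to 0.168. Gsdmc2 was lost without IL10KO replicate 3, any 1 of the DKO replicates, WT replicate 1, WT replicate 2 or SKO replicate 3, with adjusted p up to 0.0879.

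Gene groups were described by 38 lists of cell types, other tissues and pathways, for which 782 of 844 entries matched a measured gene (753 distinct genes). In 37 of the 38 lists no member passed between DKO and SKO. The exception was the inflammasome and gasdermin list, with 1 of 25 called (Casp4). That was 1 of the 753 distinct genes, beside 0.0451% of all genes. At that share, lists of 12 to 36 measured members would seldom hold a call. A list without a call therefore says little about its genes. The medians of the lists lay between -0.17 and 0.64, beside -0.03 for all genes. Where members are given below with an unadjusted p under 0.05, the share over all genes was 4.77%. That share counts both directions, 471 genes above and 588 below, while some counts of members are for 1 direction.

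**Figure D4:**
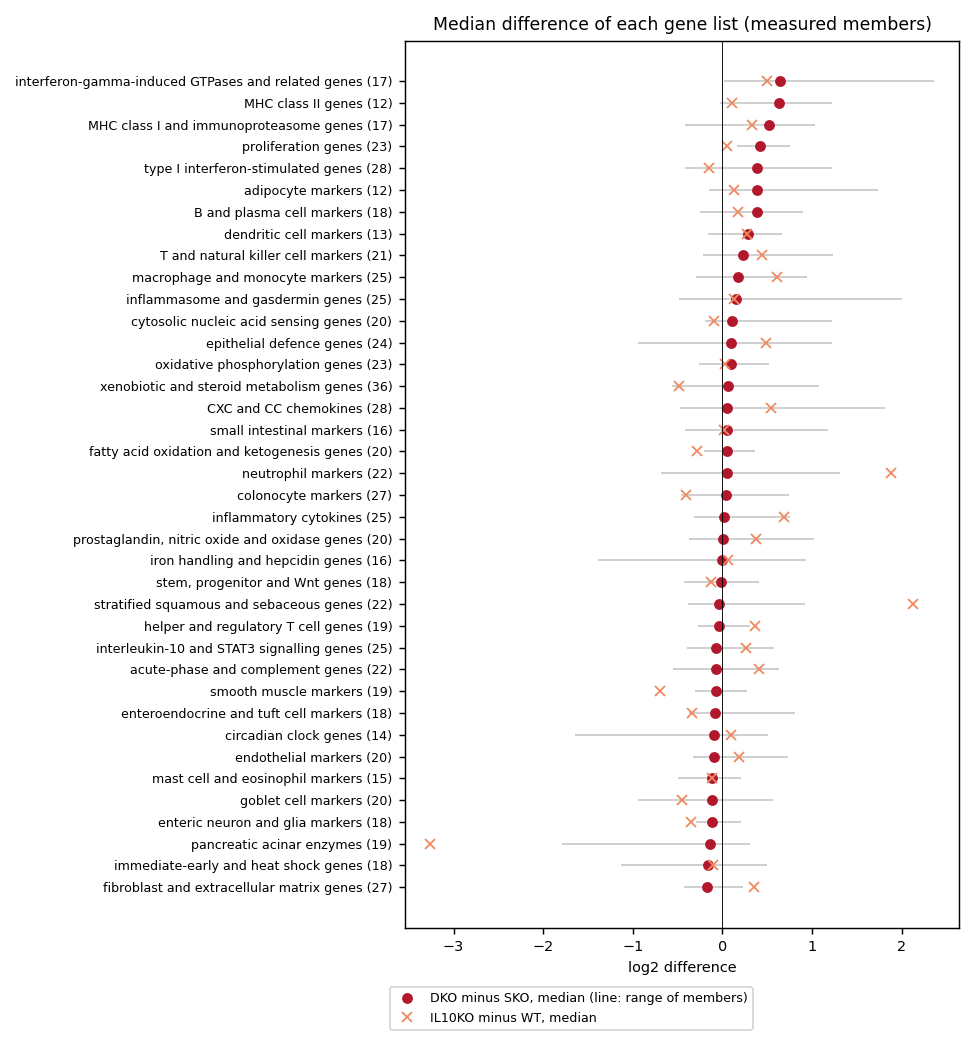
Median log2 difference of the measured members of each of 38 gene lists, with the number of members in parentheses. Filled points are DKO minus SKO with a line from the lowest to the highest member, and crosses are IL10KO minus WT. The neutrophil list has a median of 0.05 between DKO and SKO and 1.89 between IL10KO and WT.

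The interferon-gamma-induced GTPases and related genes, which act against intracellular microbes, had the highest median (0.64 over 17 members). All 17 differences were positive, 8 had an unadjusted p under 0.05, the DKO arrays lay wholly above the SKO arrays for 10 (11.1% of all genes were apart in either direction), and none passed. The list averaged 6.08, 6.49 and 6.33 in DKO arrays and 5.39, 5.29 and 5.69 in SKO arrays. Iigp1, an immunity-related GTPase, had signals of 6.92, 8.06 and 7.52 in DKO colons and 5.50, 4.43 and 5.49 in SKO colons (2.36 ± 0.69, limma adjusted p = 0.651). Cxcl9, a chemokine for activated T cells, had signals of 6.99, 7.64 and 7.67 in DKO colons and 5.27, 5.32 and 6.28 in SKO colons (1.81 ± 0.55, limma adjusted p = 0.758). Neither gene's groups overlapped. Both passed in the fit of the DKO and SKO arrays alone (limma adjusted p = 0.0175 and 0.0324) and without WT replicate 1 (limma adjusted p = 0.0307 and 0.0373), where Iigp1 had been 9.16 and Cxcl9 8.34. In the fit of the DKO and SKO arrays alone, Iigp1 was lost without DKO replicate 2 or DKO replicate 3 (limma adjusted p up to 0.104). Cxcl9 was lost there without any 1 array other than SKO replicate 3 (limma adjusted p up to 0.184). Without DKO replicate 2, DKO replicate 3 or SKO replicate 2, the members with an unadjusted p under 0.05 numbered 2, 5 and 3, at medians of 0.60, 0.69 and 0.66.

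Genes of antigen presentation had values of the same order. In the MHC class I and immunoproteasome list (17 measured, median 0.52), 16 differences were positive, 8 had an unadjusted p under 0.05 on the positive side and 1 on the negative, and none passed. Tap1, which carries peptides into the endoplasmic reticulum, had signals of 8.17, 8.67 and 8.50 in DKO colons and 7.35, 7.03 and 7.88 in SKO colons (1.03 ± 0.45, limma adjusted p = 0.998). Psmb8, a catalytic subunit of the immunoproteasome, differed by 1.02 ± 0.37 (limma adjusted p = 0.957). Without SKO replicate 2 the count on the positive side was 2 and the median 0.36, and without DKO replicate 3 the count was 3. In the MHC class II list (12 measured, median 0.63), 11 differences were positive and 2 had an unadjusted p under 0.05, a count of 4 without DKO replicate 1, 1 without SKO replicate 2 and 6 without either WT replicate 1 or WT replicate 3. H2-Aa had signals of 9.49, 9.69 and 9.38 in DKO colons and 8.23, 8.17 and 8.48 in SKO colons, clear of each other (1.23 ± 0.39, limma adjusted p = 0.798, and 0.00972 in the fit of the DKO and SKO arrays alone). In the latter fit its call was lost without DKO replicate 1 or DKO replicate 2 (limma adjusted p = 0.0584 and 0.0688).

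Type I interferon-stimulated genes, a known output of STING that other receptors can also induce, had a median of 0.39 over 28 members, with 26 positive, 4 of them at an unadjusted p under 0.05 and 1 negative member at that level. Their mean per array was 6.70, 7.17 and 6.83 in DKO colons and 6.28, 6.14 and 6.98 in SKO colons, so SKO replicate 3 reached the DKO range. Without SKO replicate 2 the median was 0.24 with 1 positive member at an unadjusted p under 0.05, and without SKO replicate 3 it was 0.64 with 14. That count was 2 without DKO replicate 1 or DKO replicate 2 and 7 without WT replicate 1. Ifit1, which binds foreign RNA ends, shows this, with signals of 6.97, 7.81 and 7.29 in DKO colons and 5.59, 5.38 and 7.72 in SKO colons (1.13 ± 0.61, limma adjusted p = 0.998). Zbp1, a sensor of Z-form nucleic acid, had signals of 7.49, 8.34 and 8.15 in DKO colons and 6.73, 6.14 and 7.43 in SKO colons (1.23 ± 0.40, limma adjusted p = 0.798). Cytosolic nucleic acid sensing genes as a list had a median of 0.10, with 1 of 20 at an unadjusted p under 0.05, and the median was 0.04 without SKO replicate 2 and 0.19 without SKO replicate 3.

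The 23 proliferation genes all had positive differences (0.16 to 0.76, median 0.42), 14 of them with an unadjusted p under 0.05, and none passed. Top2a, the topoisomerase of dividing cells, had signals of 8.33, 8.57 and 8.47 in DKO colons and 7.86, 7.33 and 7.90 in SKO colons (0.76 ± 0.19, limma adjusted p = 0.387). Bub1, a kinase of the spindle checkpoint, differed by 0.73 ± 0.19 (limma adjusted p = 0.499). The list averaged 7.62, 7.58 and 7.58 in DKO arrays and 7.33, 6.96 and 7.24 in SKO arrays. Without SKO replicate 2 the median was 0.33 and 7 members had an unadjusted p under 0.05, and without DKO replicate 3 the values were 0.37 and 11. In these tissue samples, more cells of a type and more RNA per cell cannot be told apart.

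**Figure D5:**
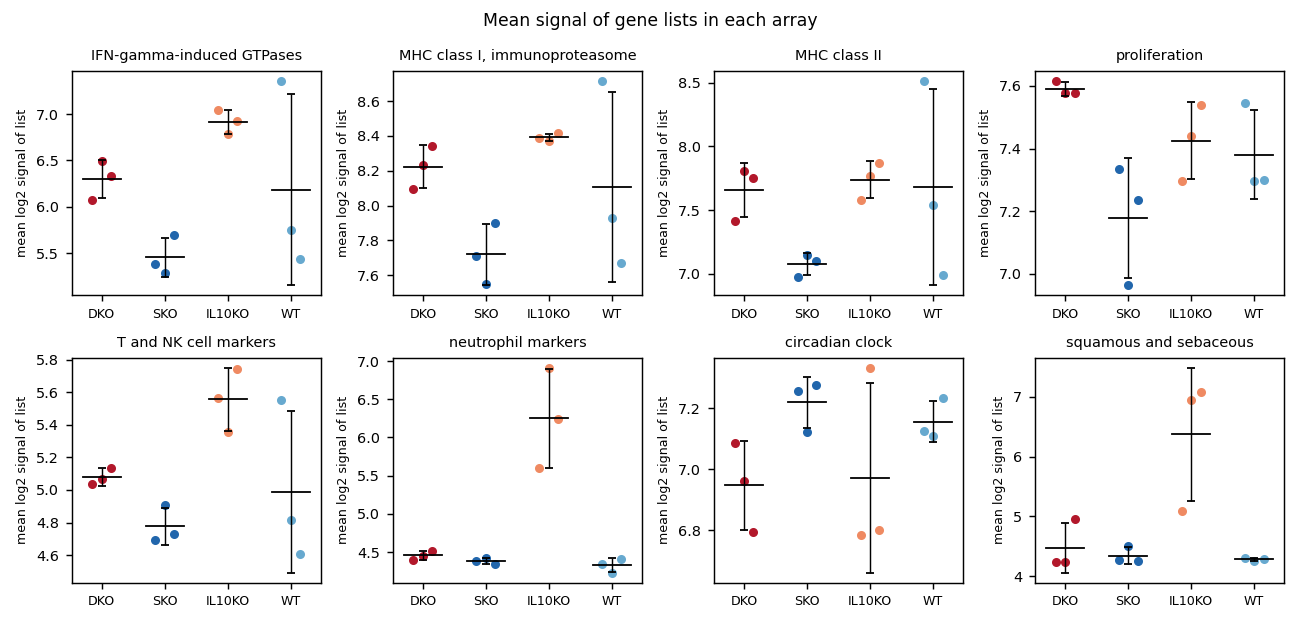
Mean log2 signal of the members of 8 gene lists in each array, by genotype, with the mean of the 3 arrays as a horizontal line and 1 SD as a vertical line. The DKO points lie above the SKO points in the interferon-gamma, MHC, proliferation and T and natural killer cell panels, and below them in the circadian clock panel. Neutrophil markers averaged 4.40 to 4.52 in DKO arrays and 4.35 to 4.42 in SKO arrays.

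Lists of immune cell markers had medians between -0.11 and 0.38. The 22 neutrophil markers had a median of 0.05 and 15 positive differences, 1 of them (Cd177) at an unadjusted p under 0.05, with 1 negative member at that level. Cd177, a surface glycoprotein of neutrophils that colon epithelium also makes, had signals of 10.74, 10.51 and 10.15 in DKO colons and 9.45, 8.98 and 9.02 in SKO colons, clear of each other (1.32 ± 0.24, limma adjusted p = 0.104). It passed without WT replicate 3 (limma adjusted p = 0.0141) and in the fit of the DKO and SKO arrays alone (limma adjusted p = 0.0218). In the latter fit the call was lost without DKO replicate 1, DKO replicate 2, SKO replicate 2 or SKO replicate 3 (limma adjusted p up to 0.127). The difference between the effects of interleukin-10 loss was called for 8 of the 22 neutrophil markers, all negative, beside 0.645% of all genes. The medians were 0.17 for macrophage and monocyte markers (25), 0.23 for T and natural killer cell markers (21), 0.38 for B and plasma cell markers (18) and -0.04 for helper and regulatory T cell genes (19). Single arrays moved some of these by over 1.5 times. The macrophage median was 0.05 without SKO replicate 2 and 0.26 without SKO replicate 1. The T and natural killer cell median was 0.15 without DKO replicate 2, 0.13 without DKO replicate 3, 0.14 without SKO replicate 1 and 0.12 without SKO replicate 3. In that list 3 members, all positive, had an unadjusted p under 0.05. The DKO arrays lay wholly above the SKO arrays for 7 of them all and wholly below for 1 (11.1% of all genes were apart in either direction). The neutrophil median was 0.12 without SKO replicate 2, and the helper and regulatory T cell median was 0.05 without DKO replicate 1 and 0.06 without SKO replicate 2. Ccl5, a chemokine of cytotoxic T cells, had signals of 6.88, 6.91 and 7.22 in DKO colons and 5.66, 5.79 and 5.86 in SKO colons (1.23 ± 0.39, limma adjusted p = 0.798, and 0.00915 in the fit of the DKO and SKO arrays alone). Cd3g, a chain of the T cell receptor complex, had signals of 5.83, 5.84 and 5.87 in DKO colons and 4.77, 4.62 and 5.01 in SKO colons (1.04 ± 0.39, limma adjusted p = 0.969, and 0.0175 with those 6 arrays). With those 6 arrays Ccl5 still passed when any 1 was left out (limma adjusted p up to 0.0448). Cd3g was lost without any 1 of the DKO replicates or SKO replicate 1 (limma adjusted p up to 0.109).

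The groups of inflammatory mediators had no call, beside 0.0451% of all genes. Medians were 0.02 for 25 inflammatory cytokines, 0.06 for 28 CXC and CC chemokines, -0.07 for 22 acute-phase and complement genes and 0.10 for 24 epithelial defence genes. With single DKO or SKO arrays left out they ranged from -0.07 (without DKO replicate 3) to 0.12 (without SKO replicate 2) for cytokines and from 0.02 (without DKO replicate 3) to 0.14 (without SKO replicate 2) for chemokines. The ranges were -0.13 (without DKO replicate 1) to -0.02 (without DKO replicate 3) for acute-phase and complement genes and 0.06 (without DKO replicate 2) to 0.22 (without DKO replicate 1) for epithelial defence genes. Tnf, a cytokine central to colitis, had signals of 5.72, 6.28 and 6.19 in DKO colons and 5.29, 5.50 and 5.14 in SKO colons, without overlap (0.75 ± 0.20, limma adjusted p = 0.517). Cfb, complement factor B, differed by 0.63 ± 0.20 (limma adjusted p = 0.784). The difference between the effects was called, negative, for 3 cytokines, 2 chemokines, 3 acute-phase and complement genes and 6 epithelial defence genes, and positive for 1 epithelial defence gene, beside 0.645% of all genes.

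In the inflammasome and gasdermin list, Pycard, the adaptor that assembles inflammasomes, had signals of 8.51, 8.35 and 8.49 in DKO colons and 7.80, 7.67 and 7.82 in SKO colons. Its groups were clear of each other, and at 0.69 ± 0.17 it was not called (limma adjusted p = 0.42). A separate list, of prostaglandin, nitric oxide and oxidase genes, had a median of 0.0085 over 20 members. In it Xdh, xanthine dehydrogenase, differed by 1.02 ± 0.29. Duox2, the epithelial oxidase that releases hydrogen peroxide into the lumen, differed by 0.88 ± 0.25 (limma adjusted p = 0.601 for each).

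Structural and epithelial lists also had no call, beside 0.0451% of all genes. Medians were 0.04 for 27 colonocyte markers, -0.12 for 20 goblet cell markers, -0.08 for 19 smooth muscle markers and -0.17 for 27 fibroblast and extracellular matrix genes, of which 4 had positive differences. With single DKO or SKO arrays left out these medians ranged from 0.02 (without SKO replicate 2) to 0.12 (without SKO replicate 3) for colonocyte markers and from -0.15 (without DKO replicate 3) to -0.03 (without SKO replicate 1) for goblet cell markers. The smooth muscle median ranged from -0.14 (without DKO replicate 1) to -0.0046 (without DKO replicate 3), and the fibroblast median from -0.25 (without DKO replicate 1) to -0.12 (without SKO replicate 1). For the fibroblast list the difference between effects was called for 7 members, all negative, beside 0.645% of all genes. It was called for 2 members each of the colonocyte, goblet cell and smooth muscle lists, all positive. Gcg, which encodes glucagon-like peptides of enteroendocrine cells, had signals of 9.06, 9.10 and 8.81 in DKO colons and 8.25, 8.39 and 7.89 in SKO colons (0.81 ± 0.18, limma adjusted p = 0.246). Hamp, which encodes hepcidin, had signals of 4.53, 5.05 and 4.59 in DKO colons and 7.26, 5.32 and 5.75 in SKO colons (-1.39 ± 0.67, limma adjusted p = 0.998), and SKO replicate 1 was the highest of the 6. Car3, an enzyme of fat cells, had signals of 10.63, 5.45 and 8.33 in DKO colons and 4.98, 6.95 and 7.27 in SKO colons, which overlapped widely.

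Of 14 clock genes (median -0.10, -0.16 without DKO replicate 1 and -0.05 without DKO replicate 3), 4 had an unadjusted p under 0.05 on the negative side and 1 on the positive, and none passed. The difference between the effects was called for 3 clock genes on the positive side and 2 on the negative, beside 0.645% of all genes. Between IL10KO and WT, 2 were called higher and 4 lower, beside 8.14% of all genes. Nr1d1, which encodes the repressor REV-ERB alpha, had signals of 7.74, 7.10 and 6.57 in DKO colons and 8.80, 8.38 and 9.17 in SKO colons (-1.65 ± 0.34, limma adjusted p = 0.207). Dbp, a clock output transcription factor, had signals of 6.46, 6.36 and 6.39 in DKO colons and 7.10, 7.30 and 7.34 in SKO colons (-0.84 ± 0.18, limma adjusted p = 0.246, and 0.0414 in the fit of the DKO and SKO arrays alone). The DKO arrays lay below the SKO arrays for both genes, and neither passed in the fit of all arrays. In the fit of the DKO and SKO arrays alone, Dbp was lost when any 1 array was left out (limma adjusted p = 0.0683 to 0.266). The labels do not state the hour of collection. Heat shock genes Hspa1a and Hspa1b differed by -1.13 ± 0.44 and -0.75 ± 0.36 (limma adjusted p = 0.998 for each).

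Beyond the 10 genes, the fit of the DKO and SKO arrays alone called others that the naming rule does not cover. Trim12a and Trim30d, of a cluster of restriction factors on chromosome 7 whose members are similar enough to share probes, differed by 2.48 and 2.90. Trim12a had signals of 7.40, 7.53 and 7.31 in DKO colons and 4.90, 4.84 and 5.06 in SKO colons, and 7.75, 5.24 and 4.26 in the WT libraries. Zan, which encodes the sperm protein zonadhesin, had signals of 7.57, 7.54 and 7.16 in DKO colons and 5.18, 5.04 and 4.93 in SKO colons, and 7.88, 8.19 and 5.10 in the WT libraries. These genes were even within DKO and SKO and uneven among WT libraries. Apol10a differed by 2.03, Tnnt2 by 1.34, Elmod1 by -1.10 and Serpina3n, a protease inhibitor of the acute phase, by -1.33. In that fit of 6 arrays, Elmod1 was lost without any 1 of the DKO replicates or SKO replicate 1 (limma adjusted p up to 0.0693). Serpina3n was lost there without DKO replicate 1, DKO replicate 2, SKO replicate 1 or SKO replicate 2 (limma adjusted p up to 0.122). For Serpina3n the effects differed by -3.28 (limma adjusted p = 0.0331), a call held under 12 of 20 other settings. These genes were singled out after their values were seen.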

How the data were processed

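Total RNA of colon was extracted with QIAGEN RNeasy kits and labelled with the WT PLUS kit, per the labels' protocols. Per the submitters' processing notes, the software was Affymetrix Expression Console, version 1.3.1.187, and the deposited table of the authors gives a log2 signal for each probe set. How probes were summarised and arrays normalized, and on which genome build the array was designed, is not stated there. The log2 scale was inferred from the range of the values. The table holds 41345 probe sets on 12 arrays and no detection calls, so dim is not absent, and precision is set by the number of arrays. Replicate numbers follow sample order and pair nothing, and label dates were left aside.

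Names came from the platform annotation (23521 probe sets with 1 symbol, 1814 with several, 16010 unnamed here). For 1082 genes with several probe sets the brightest stood for the gene. Values were used as deposited, without a filter. limma 3.58.1 in R 4.3.3 was fitted to all 12 arrays with a mean per genotype, 8 residual and 5.56 prior degrees of freedom, and its 2-sided p-values were adjusted by Benjamini-Hochberg over 22180 genes. The steps were tested on simulated data.

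The genotypes compared, the members and the gene lists were chosen with earlier results of these data known. Genes were named by a rule: up to 15 rises and 15 falls among calls whose arrays do not overlap, 5 and 5 for the difference between effects, up to 6 called members per list or else its 2 largest differences, and both targeted genes. Predicted genes are outside that rule, and Gm609 and Gm6020 are named because every call is listed. Promoter windows are 250 bases before the RefSeq start. Other settings tried were quantile normalization and median centring, a filter that drops the dimmest 33.3% of genes, averaging or testing every probe set, fitting the DKO and SKO arrays alone, a trended and robust prior, array weights, a 2-fold threshold and the omission of arrays.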

Additional observations from a re-analysis of the deposited data

Results flagged for a closer look

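The effects of interleukin-10 loss under the 2 labelled STING genotypes differed by limma's test of (DKO minus SKO) minus (IL10KO minus WT) for 14 of the genes named. The difference was -6.46 for Reg3g, -6.22 for Saa3, -5.82 for Reg3b, -4.52 for Retnlg and -4.15 for S100a8. It was -3.28 for Serpina3n, a protease inhibitor of the acute phase that was singled out after its values were seen. It was -1.54 for the clock gene Dbp, 1.31 for Gm6020 and 1.54 for Gm609. On the positive side it was 2.50 for Gsdmc2, 2.61 for C7, 2.74 for Gsdmc3, 3.51 for Clps and 5.39 for Ang4. Gm6020 and Gm609 are the genes among the 14 that were also called between DKO and SKO in the fit of all arrays. For the difference between effects, the call of Serpina3n held under 12 of 20 other settings, that of Dbp under 15 of 20 and that of Gm6020 under 10 of 19.

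With every probe set tested, probe sets without a gene name here also passed between DKO and SKO. Of the called genes, Gm609, Nxpe4, St3gal4, Gdpd3 and Casp4 kept their calls in that test. The calls of Cbr3, Ceacam10, Dubr, Hddc3 and Gm6020 were lost in it. A probe set of Unkl, a gene not called in the main test, passed there (-1.36 ± 0.18, limma adjusted p = 0.0281 over all probe sets). Probe sets 17548738, 17548740 and 17548742 hold identical values, 10.27, 10.69 and 10.33 in DKO colons and 5.12, 4.93 and 4.96 in SKO colons, a difference of 5.42 ± 0.17 (limma adjusted p = 1.56e-08 over all probe sets), so they count as 1 measurement. On the other arrays the same probe sets had 9.64, 9.67 and 9.41 in IL10KO and 5.05, 4.60 and 5.08 in WT. Probe set 17284657 had 9.89, 9.74 and 8.44 in DKO colons and 3.01, 2.89 and 2.57 in SKO colons, a difference of 6.54 ± 0.78 (limma adjusted p = 0.0130). Its values were 6.79, 7.59 and 6.79 in IL10KO and 6.89, 5.46 and 2.83 in WT.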

How the results depend on the processing

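No paired analysis was possible because the labels give the groups no shared replicate numbers. The 10 genes called between DKO and SKO were examined under 21 other settings, and of 209 values 165 kept the call, 44 lost it and none changed sign. The count was 41 with the DKO and SKO arrays alone, 1940 with array weights, whose estimation did not reach its tolerance and gave SKO replicate 1 a weight of 13.6 against 0.275 for SKO replicate 2, and 85 with gene-by-gene weights, added after the data were seen. It was 4 with DKO replicate 3 and SKO replicate 2 both left out and 29 with WT replicate 3 and IL10KO replicate 1 both left out. Leaving out single arrays gave 5 to 20 calls, and, in the fit of the DKO and SKO arrays alone (added after the data were seen), 20 to 45 (22, 20 and 25 without DKO replicates 1, 2 and 3, and 28, 45 and 37 without SKO replicates 1, 2 and 3). The count for the difference between effects was 143, and 736 with array weights, 336 with gene-by-gene weights, 26 and 304 with those pairs left out, 30 over all probe sets and 50 to 376 without single arrays. The cause of these moves was not tested. Quantile normalization, median centring, the dimness filter, the mean of probe sets and the trended prior gave 9 to 11 calls between DKO and SKO. These were not always the same genes. Of the 10, 8 were called after quantile normalization, 9 after median centring and 9 with the dimness filter. All 10 were called with the mean of probe sets and with the trended prior. With 3 arrays a group and no detection calls for dim signals, small differences could go unseen.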

Other observations

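Across genes, the arrays labelled STING-/- were close to each other. The correlation of a DKO with an SKO array over all genes was 0.980 to 0.992, that of 2 DKO arrays 0.989 to 0.993, that of 2 SKO arrays 0.983 to 0.995 and that of an IL10KO with a WT array 0.961 to 0.975. Within groups, the mean correlation of an IL10KO array with the other IL10KO arrays was 0.976 to 0.979. That of a WT array with the other WT arrays was 0.986 to 0.988. The library labelled WT replicate 3 correlated best with SKO replicate 1, at 0.997.

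Markers of the small intestine had a median difference of 0.05 between DKO and SKO over 16 members. Fabp2, a fatty acid binding protein of enterocytes, had signals of 9.39, 9.64 and 9.77 in DKO colons and 8.77, 8.24 and 8.24 in SKO colons, and Apob, the protein of chylomicrons, 7.72, 8.19 and 7.83 in DKO colons and 6.47, 6.73 and 7.14 in SKO colons. Neither passed in the fit of all arrays (limma adjusted p = 0.998 for each), and Fabp2 passed in the fit of the DKO and SKO arrays alone (limma adjusted p = 0.0324). In the latter fit it was lost without any 1 of the DKO replicates, SKO replicate 2 or SKO replicate 3 (limma adjusted p up to 0.186). The list's median was -0.05 without SKO replicate 3.

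Krt4, a keratin of stratified squamous epithelium, had signals of 4.46, 4.37 and 6.94 in DKO colons and 4.24, 4.38 and 4.39 in SKO colons, so DKO replicate 3 stood above the other 5 arrays.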
